A study of Labrus bergylta with 24 samples.

Results

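Segment 3 of the ballan wrasse intestine was compared with segment 1 in the same 6 fish, to ask which genes change between the front of the gut and the piece ahead of the hind-gut. Ballan wrasse (Labrus bergylta) is a marine fish without a stomach. The intestine of each of the 6 fish was cut into 4 consecutive segments, with segment 1 at the front and segment 4 the hind-gut, and 1 RNA-seq library was made from each rinsed segment, which gave 24 libraries. All fish were fed adults from a commercial farm with no treatment, and no genotype, strain or sex is stated for them. The labels name 6 fish and 24 libraries, the methods of the study state other numbers, and the labels were followed. Of the 27392 gene models in the table, 18230 had a normalized count (reads divided by the size factor of the library) of at least 10 in 6 or more of the 12 libraries of segments 1 and 3 and were compared, and 9162 were not. Among the 18230, 22 models reached that minimum through segment 3 alone and 5 through segment 1 alone, so these had to differ and no p is given for those described below. A gene name was given to 16563 of the compared models and 1667 had none.

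A fish intestine keeps much of its division of labour in the order of its segments. Fat, peptides and sugars are taken up mainly at the front, where bile enters and where hormone cells sense the meal. In mammals, bile acids are recovered further back, in the ileum, by a set of proteins that import them at the brush border, bind them in the cell and export them to the blood. Hox genes, which encode transcription factors that mark position along the body axis, are active in the gut in an order from front to back. The intestine of a seawater fish also absorbs salt and water from the seawater it drinks. The epithelial genes VIL1 (villin), Epcam and CDH1 (cell adhesion) were present in every library of both segments, with lowest values of 11486, 7021 and 12927. A second CDH1 model (LABE_00052930) was near 0, with medians of 3.64 in segment 1 and 5.87 in segment 3, and was not compared.

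The libraries of the 2 segments had similar depth, with 16492862 to 23760133 reads on gene models in segment 1 (median 18174943) and 15528490 to 27818017 in segment 3 (median 18238351.5). Values of 2 libraries correlated across genes at 0.917 to 0.967 within segment 1, at 0.915 to 0.963 within segment 3 and at 0.917 to 0.961 between the 2 libraries of a fish. In segment 3, the library of fish 6 stood apart from the others. Each library was placed on a scale on which the mean of segment 1 is 0 and the mean of segment 3 is 1, using the 500 gene models that separated the 2 segments most in the other 5 fish. Segment 1 libraries lay at -0.03 to 0.06, and segment 3 libraries at 0.68 in fish 6, 0.87 in fish 2 and 0.95 to 1.17 in the other 4. Segment 2 lay between, at 0.32 to 0.60, and segment 4 at 0.90 to 1.05. The scale covers only differences between segments 1 and 3, so it does not show where segment 4 differs from segment 3. The library of fish 6 kept genes of segment 1 in segment 3. That of fish 2 lay close to fish 1 on this scale but was low in some genes of segment 3. Both are used under their deposited labels, and for some genes the result without fish 6 or without fish 2 is also given.

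**Figure D1:**
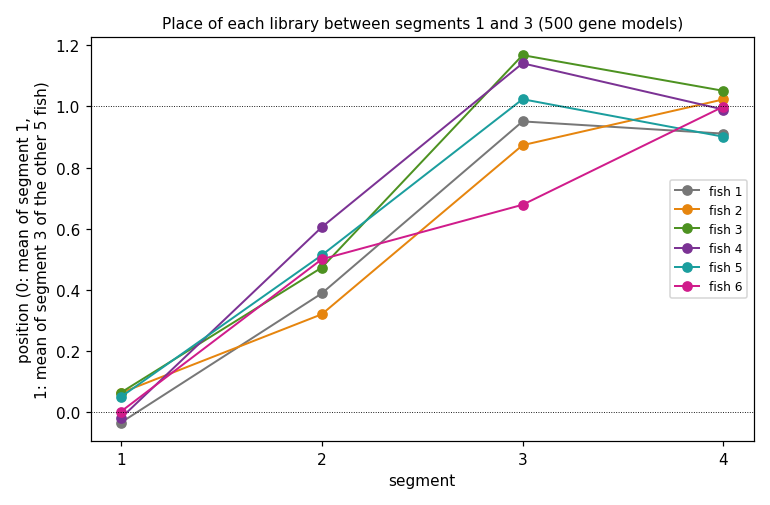
Place of each of the 24 libraries between the mean of segment 1 (0) and the mean of segment 3 (1), by segment, with 1 line per fish. Segment 1 libraries lie at -0.03 to 0.06, and in segment 3 fish 6 lies lowest at 0.68, followed by fish 2 at 0.87.

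Of the 18230 gene models, 3592 (19.7%) passed an adjusted p of 0.05 between segment 3 and segment 1 in a paired limma fit on log2 of the normalized count plus 1. Among these, 1605 (8.8%) were higher in segment 3 and 1987 (10.9%) were lower. Of the higher models, 1380 were higher in all 6 fish, and of the lower models, 1709 were lower in all 6 fish. In 1357 models (7.44%) the values of the 2 segments did not overlap, with 735 higher and 622 lower in segment 3. The median log2 fold change was 0.72 among the higher models, -0.59 among the lower models and 0.01 over all 18230. Changes of 1 or more on the log2 scale were found in 514 higher and 435 lower models, of 3 or more in 89 and 53, and of 5 or more in 20 and 19. The counts at 1 or more include the 22 and 5 models that passed through segment 3 or segment 1 alone and had to differ. Those at 3 or more and at 5 or more include some of them. Among the other 18203 models, 1583 were called higher and 1982 lower. The count of calls fell to 2257 (998 higher, 1259 lower) without fish 3 and to 2392 (1149 higher, 1243 lower) when the fish were not paired. In whole segments, fewer cells of a type and less RNA per cell cannot be told apart.

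**Figure D2:**
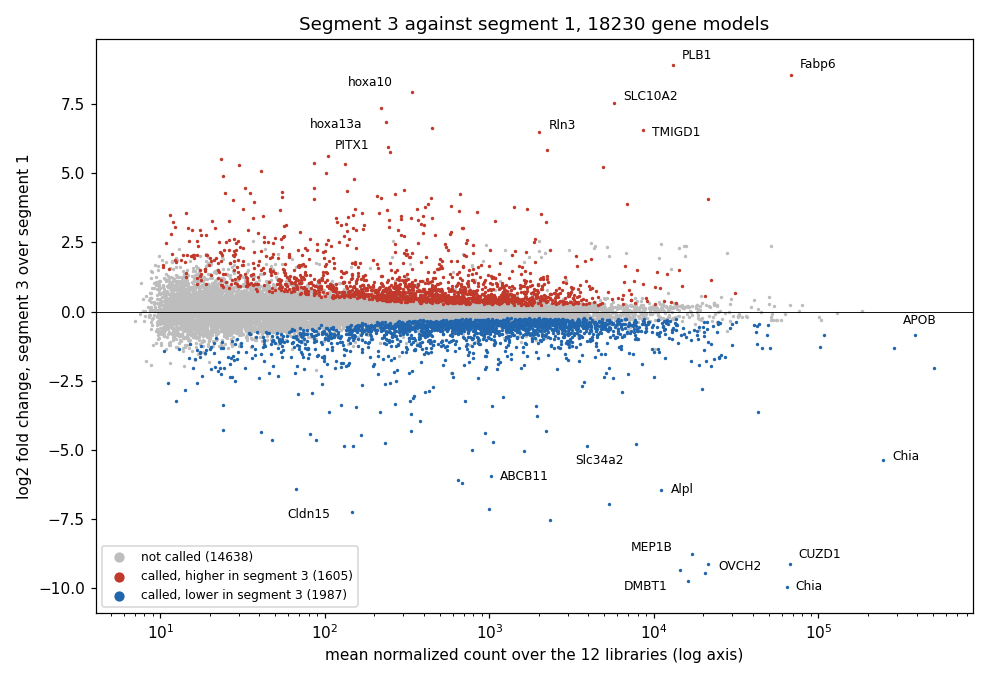
Log2 fold change of segment 3 over segment 1 (y axis) against the mean normalized count over 12 libraries (x axis, log scale) for 18230 gene models, with 1605 called higher in red and 1987 called lower in blue. PLB1 and Fabp6 lie at the top with 8.93 and 8.58, and Chia at the bottom with -9.97.

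Genes of the bile acid route changed in both directions: 13 of 22 tested models were called, against 19.7% of all models, with 6 higher and 7 lower in segment 3 and a median log2 fold change of -0.10, beside 0.01 over all models. The higher ones were mainly carriers and binding proteins of bile acid recovery, and several lower ones are known from bile acid synthesis and canalicular export in the mammalian liver. For each gene below, normalized counts are given as the lowest, the median and the highest of the 6 libraries, and the log2 fold change (segment 3 over segment 1, on values plus 1) with its standard error (SE). Fabp6 (LABE_00051334), which binds bile acids inside the enterocyte, had 72.3, 292 and 487 in segment 1 and 5135, 146725 and 218720 in segment 3. Every segment 3 library was above every segment 1 library, although the lowest, that of fish 2, was far under the other 5, which held 96593 or more (log2 fold change 8.58 ± 0.36, limma adjusted p = 9.77e-07). SLC10A2 (LABE_00014762), the sodium-driven importer of bile acids, had 31.7, 43.5 and 52.4 in segment 1 and 1768, 9098 and 23351 in segment 3 (log2 fold change 7.54 ± 0.35, limma adjusted p = 2.07e-06). Its 2 groups did not overlap, and fish 2 was again the lowest in segment 3. The exporter of bile acids to the blood is a pair of proteins, of which slc51a (LABE_00015135) had 187, 265 and 424 in segment 1 and 718, 4156 and 5886 in segment 3 (log2 fold change 3.52 ± 0.41, limma adjusted p = 0.000368), with no overlap. Its partner slc51b (LABE_00049906) had 3295, 4446 and 5228 in segment 1 and 3624, 12864 and 14877 in segment 3, with overlapping groups and 5 of 6 fish higher in segment 3 (log2 fold change 1.10 ± 0.31, limma adjusted p = 0.0313), and that call was lost without fish 1, 3, 4 or 5 (adjusted p up to 0.0947). A second slc51a model (LABE_00053185) was lower in segment 3, by -1.39 ± 0.35 on the log2 scale (limma adjusted p = 0.0217). SLC10A1 (LABE_00006912), a second bile acid importer known from the mammalian liver, had 26.6, 161 and 420.2 in segment 1 and 86.9, 1461 and 2074 in segment 3 (log2 fold change 2.60 ± 0.22, limma adjusted p = 6.45e-05), and the groups overlapped only through fish 2. CYP8B1 (LABE_00056257), which sets the kind of bile acid made, had 166, 389 and 1314 in segment 1 and 675, 1799.7 and 2651 in segment 3 and was higher in all 6 fish (log2 fold change 1.75 ± 0.22, limma adjusted p = 0.000514).

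Among the lower genes of this route, ABCB11 (LABE_00036579), the bile salt export pump, had 564, 1786 and 3761 in segment 1 and 1.07, 26.9 and 286 in segment 3. The groups did not overlap and the pump was close to 0 in some segment 3 libraries (log2 fold change -5.95 ± 0.74, limma adjusted p = 0.000526). Without fish 6 the log2 fold change was -6.65. CYP7A1 (LABE_00000787), the rate-limiting enzyme of bile acid synthesis, had 5539, 8996 and 39084 in segment 1 and 569, 2573 and 13138 in segment 3. These ranges overlapped, but all 6 fish were lower in segment 3 (log2 fold change -2.37 ± 0.40, limma adjusted p = 0.00294), and the pairing carried the call, since without it the limma adjusted p was 0.0654. ABCC2 (LABE_00034121), an exporter of conjugated compounds, was lower in all 6 fish (log2 fold change -0.98 ± 0.13, limma adjusted p = 0.000762), and so was NR1H4 (LABE_00063741), the bile acid sensor, by a small amount (log2 fold change -0.44 ± 0.096, limma adjusted p = 0.0102). The summed value of the list was higher in segment 3 in 5 of 6 fish, with a median of 32362 in segment 1 and 190125 in segment 3. Fabp6 alone accounts for most of the difference between these medians, and the median log2 fold change over the list was -0.10. The count of 7 lower models fell to 4 without pairing and to 4 with a value of at least 10 in every library. A separate list of liver genes was called in 5 of 10 tested models (50%, against 19.7% of all models), 4 lower and 1 higher, with a median of -0.36. Its lower count was 2 without fish 2, 3 or 6, and its summed value was lower in segment 3 in all 6 fish. How much liver tissue each library held was not tested.

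**Figure D3:**
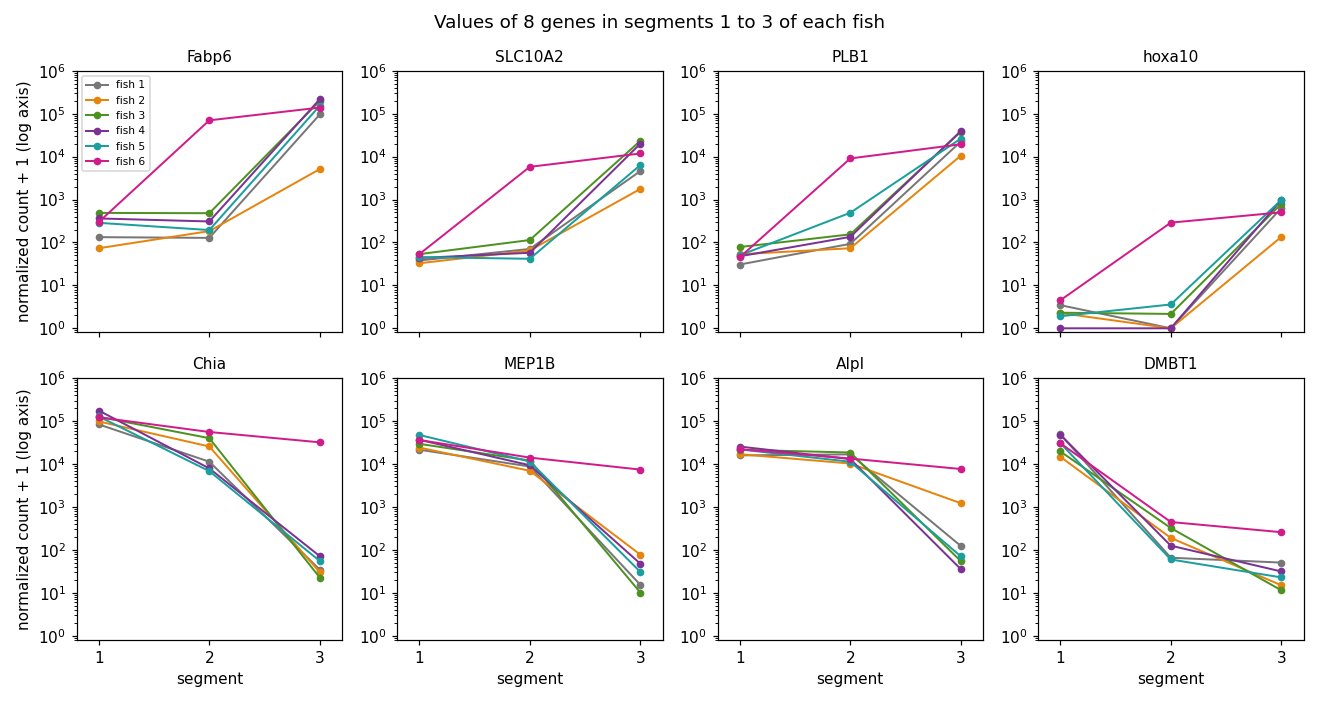
Normalized count plus 1 (log axis) of 8 genes in segments 1 to 3, with 1 line per fish. Fabp6, SLC10A2, PLB1 and hoxa10 rise late in most fish but were already high in segment 2 of fish 6, and Chia and MEP1B stay high in segment 3 of fish 6 alone.

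Segment 2 showed where along the gut these genes changed. In fish 1 to 5 the value of Fabp6 in segment 2 was 127 to 479, within the range of the segment 1 libraries, whereas in fish 6 it was 70032. SLC10A2 had 40.6 to 113 in fish 1 to 5, which reached above its segment 1 range, and 5777 in fish 6. PLB1 (LABE_00025919) had 72.3 to 491 in fish 1 to 5, also reaching above its segment 1 range, and 9067 in fish 6. The fold change of segment 3 over segment 1 does not depend on these segment 2 values, and without fish 6 it was 8.52 for Fabp6 and 7.48 for SLC10A2.

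Position genes were measured in 20 tested Hox and ParaHox models, of which 6 reached the minimum through segment 3 alone (hoxa10, hoxa9, hoxa13a, hoxc9 and the 2 hoxc8a models) and so had to differ. Of the other 14, 7 were higher in segment 3 (background 8.8%) and 2 lower (background 10.9%), with a median log2 fold change of 0.63, beside 0.01 over all models. The 6 largest rises were all of models that reached the minimum through segment 3 alone, so no order along the Hox clusters is read from them. hoxa10 (LABE_00032182) had 0, 1.29 and 3.48 in segment 1 and 134, 715 and 987 in segment 3 (log2 fold change 7.94 ± 0.48). hoxa9 (LABE_00032178) had 0, 1.89 and 4.15 in segment 1 and 98.7, 443 and 685 in segment 3 (log2 fold change 7.36 ± 0.49), and hoxa13a (LABE_00032184) had 0, 1.67 and 7.86 in segment 1 and 46.1, 486 and 917 in segment 3 (log2 fold change 6.87 ± 0.47). Each of these was close to 0 in segment 1, so the size of the fold depends on the added 1. In segment 3, fish 2 held the lowest value of each. hoxc9 (LABE_00018821) rose from a median of 3.13 to 225 (log2 fold change 5.64 ± 0.59). The other higher Hox models were the 2 of hoxc8a (LABE_00018819 and LABE_00018820, by 5.10 and 5.53), hoxa10b (3.73), hoxc1a (2.72), hoxc4a (2.23), hoxb5b (2.06) and hoxa4 (0.70). The 5 models that did not pass were hoxc5a, hoxa5, hoxb3a, hoxb6a and hoxb5a, between -0.82 and 0.97. In segment 2, fish 6 held 289 of hoxa10 while the other 5 fish held at most 2.59. PDX1 (LABE_00003301), a ParaHox gene known for the duodenum and pancreas of mammals, was higher in segment 3, with 6.37, 13.9 and 33.3 in segment 1 and 50.7, 87.8 and 148 in segment 3 and no overlap (log2 fold change 2.61 ± 0.36, limma adjusted p = 0.000872). hoxb4a (LABE_00052803) went the other way, from 44.6 to 57.1 in segment 1 to 19.3 to 31.6 in segment 3 (log2 fold change -0.92 ± 0.22, limma adjusted p = 0.0149). However, hoxc4a and hoxa4, of the same group number, were higher in segment 3. A pair of models of CDX1, a ParaHox regulator of the intestinal epithelium, moved oppositely. LABE_00045324 was lower in all 6 fish by -0.40 ± 0.091 (limma adjusted p = 0.0135) and LABE_00038637 was higher in 5 by 0.53 ± 0.11 (limma adjusted p = 0.00959). Both groups of CDX1 values overlapped, neither model was called without pairing (limma adjusted p = 0.127 and 0.0811), and the first was not called without fish 6 (limma adjusted p = 0.0522). With a value of at least 10 required in every library, which leaves out genes near 0 in segment 1, 3 higher Hox models were called.

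Transcription factors of the gut beyond the Hox genes were called in 16 of 57 tested models (28.1%, against 19.7% of all models), 9 higher and 7 lower, with a median of -0.09, and the lower count was 4 without fish 3. PITX1 (LABE_00019541), a homeobox factor known for patterning of the hindlimb and pituitary in mammals, had 2.47, 6.65 and 17 in segment 1 and 248, 471 and 742 in segment 3 (log2 fold change 5.79 ± 0.38, limma adjusted p = 1.76e-05). Its groups did not overlap. The factor gata4, which maintains the proximal intestine in mammals, and the related gata6-a both went down. gata4 (LABE_00042570) had 600.3, 685 and 785 in segment 1 and 24.3, 117 and 251 in segment 3 (log2 fold change -2.91 ± 0.37, limma adjusted p = 0.000585), and gata6-a (LABE_00019064) had 6522, 8279.8 and 10449 in segment 1 and 3167, 4477 and 6144 in segment 3 (log2 fold change -0.84 ± 0.11, limma adjusted p = 0.000877). The groups of both were separate, with a larger drop for gata4.

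The largest drop of a named model was that of Chia. Chia (LABE_00056104), a chitinase that cuts the chitin of crustacean shells, had 83902, 124420 and 176390 in segment 1 and 21.5, 43.6 and 32043 in segment 3. The highest value of segment 3 belonged to fish 6, and the other 5 held 21.5 to 69.9 (log2 fold change -9.97 ± 1.15, limma adjusted p = 0.000354). A second chitinase (LABE_00056099) had 341860, 471340 and 573400 in segment 1 and 1361, 9204 and 120860 in segment 3 (log2 fold change -5.36 ± 0.75, limma adjusted p = 0.00101). In both, every library of segment 1 was above every library of segment 3. Without fish 6 the log2 fold changes were -11.57 and -6.06. The other 3 of the 5 tested chitinase models were not called, so 2 of 5 were called (40%, against 19.7% of all models). The median over the 5 was -0.25, and the summed value of the list had a median of 596760 in segment 1 and 10064 in segment 3.

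OVCH2 (LABE_00007043), a secreted protease-like protein, and MEP1B (LABE_00001277), a brush border metalloprotease, showed the same pattern as Chia. OVCH2 had 21754, 46128 and 55881 in segment 1 and 17.6, 24.3 and 8817 in segment 3 (log2 fold change -9.15 ± 0.94, limma adjusted p = 0.000174), and MEP1B had 21567, 32974 and 47626 in segment 1 and 9.11, 38.1 and 7419 in segment 3 (log2 fold change -8.79 ± 0.98, limma adjusted p = 0.000285). Fish 6 held the highest segment 3 value of both, and without it the log2 fold changes were -10.45 and -10.09. CUZD1 (LABE_00026701), a protein with CUB and zona pellucida domains known from the pancreas, had 26894, 126650 and 209330 in segment 1 and 50.1, 132 and 5528 in segment 3 (log2 fold change -9.15 ± 0.70, limma adjusted p = 3.75e-05). Agt (LABE_00026700), the precursor of angiotensin, had 845, 4336 and 7339.7 in segment 1 and 6.67, 14 and 212 in segment 3 (log2 fold change -7.55 ± 0.61, limma adjusted p = 4.89e-05). Without fish 6 the log2 fold changes of CUZD1 and Agt were -10.06 and -8.20. The identifiers of these 2 models are consecutive. In segment 1, fish 2 was the lowest in both, at 26894 for CUZD1 and 845 for Agt, and it was also the lowest in OLFM4.

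Mucus and goblet cell genes were called in 20 of 44 tested models, and each of the 20 was lower in segment 3 (background 10.9%), with a median of -0.34 over the list. The list was chosen with results of these data known. DMBT1 (LABE_00069462), a secreted scavenger receptor of mucosal surfaces, had 14835, 30762 and 49551 in segment 1 and 10.4, 26.1 and 257 in segment 3 (log2 fold change -9.75 ± 0.42, limma adjusted p = 1.11e-06). OLFM4 (LABE_00009047), a secreted glycoprotein that marks crypt base cells in human intestine, had 8681, 41609.5 and 66099 in segment 1 and 9.76, 23.5 and 1938 in segment 3 (log2 fold change -9.49 ± 0.79, limma adjusted p = 5.92e-05), and a second Olfm4 model (LABE_00009046) had 5595, 27381 and 47068 in segment 1 and 8.59, 21 and 1291 in segment 3 (log2 fold change -9.37 ± 0.72, limma adjusted p = 3.79e-05). None of the 3 overlapped. The highest values of segment 3 were again of fish 6, and without it the log2 fold changes of these 3 models were -10.33, -10.49 and -10.35. Among 3 genes of the goblet cell lineage chosen after their values were seen, agr2 (LABE_00041039), which folds mucins, had 10635, 12716 and 18756 in segment 1 and 5166, 7516 and 8819 in segment 3 (log2 fold change -0.89 ± 0.14, limma adjusted p = 0.0024). ATOH1 (LABE_00027155), the factor that commits cells to the secretory lineage, fell by 0.70 ± 0.12 on the log2 scale without overlap (limma adjusted p = 0.00329), and SPDEF (LABE_00010120), the goblet cell factor, fell by 0.65 ± 0.14 with overlapping groups (limma adjusted p = 0.0104). The summed value of the list had a median of 354491 in segment 1 and 95343 in segment 3 and was lower in segment 3 in all 6 fish.

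Cldn15 and Natterin-3 were also among the 10 largest drops. Cldn15 (LABE_00040148), a claudin that forms sodium pores between cells, had 68.4, 295 and 568 in segment 1 and 0, 0.325 and 4.85 in segment 3 (log2 fold change -7.24 ± 0.41), and it reached the minimum through segment 1 alone. Natterin-3 (LABE_00065137), named after a toxin of fish venom, had 627, 1562 and 4766 in segment 1 and 1.3, 6.14 and 144 in segment 3 (log2 fold change -7.17 ± 0.74, limma adjusted p = 0.000187), and without fish 6 the fold change was -8.01. Its groups were separate. Tight junction genes as a list were called in 8 of 32 models (25%, near the background of 19.7%), 7 lower and 1 higher, with a median of -0.15, and in 7 of 31 without Cldn15. The lower ones included the plaque proteins cingulin (cgn, LABE_00032469, log2 fold change -0.49 ± 0.094, limma adjusted p = 0.00548) and TJP1 (LABE_00013455, log2 fold change -0.65 ± 0.15, limma adjusted p = 0.0123). A second called model named TJP1 was higher in segment 3 (log2 fold change 0.36).

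Phosphate and calcium genes were called in 9 of 23 models (39.1%, against 19.7% of all models), 5 higher and 4 lower, with a median of 0.13, and 1 of the higher models reached the minimum through segment 3 alone. Alpl (LABE_00022112), an alkaline phosphatase, had 15907, 21722 and 25508 in segment 1 and 34.5, 95.7 and 7657 in segment 3 (log2 fold change -6.46 ± 0.91, limma adjusted p = 0.00105). Fish 6 with 7657 and fish 2 with 1220 held the highest segment 3 values, and without fish 6 the log2 fold change was -7.44. Slc34a2 (LABE_00065592), a sodium phosphate carrier of the brush border, had 4561, 8391 and 8893 in segment 1 and 76, 309 and 599.9 in segment 3 (log2 fold change -4.86 ± 0.40, limma adjusted p = 5.7e-05), and ALPI (LABE_00031612), the intestinal alkaline phosphatase, had 6198, 9572 and 12070 in segment 1 and 2184, 3562 and 4943 in segment 3 (log2 fold change -1.35 ± 0.16, limma adjusted p = 0.000471). All 3 were separate between the segments. A second Slc34a2 model (LABE_00001002) moved the other way, with 975, 4901 and 31588 in segment 1 and 11829, 15932 and 30971 in segment 3, higher in 4 of 6 fish with overlapping groups (log2 fold change 1.49 ± 0.43, limma adjusted p = 0.0356). Its call was lost without fish 1, 4, 5 or 6 (limma adjusted p = 0.0745 to 0.104) and without pairing (0.181). Of the 5 higher models, 1 was called when a value of at least 10 was required in every library.

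Genes of fat handling were called in 31 of 73 tested models (background 19.7%), 8 higher and 23 lower, with a median log2 fold change of -0.17. The lower count was 15 without fish 3, and the higher count was 5 without fish 4 and 5 without pairing. The model with the largest rise of all, PLB1 (LABE_00025919), a brush border phospholipase, had 29.6, 47.9 and 77.3 in segment 1 and 10567, 24432 and 39581 in segment 3 (log2 fold change 8.93 ± 0.22, limma adjusted p = 4.01e-08). No segment 3 library came near a segment 1 library. Of the 3 other tested models of that name, 2 were called, both lower. LABE_00075407 had 380.3, 568 and 715 in segment 1 and 5.46, 53.8 and 277 in segment 3 (log2 fold change -3.69 ± 0.61, limma adjusted p = 0.0026), and LABE_00046817 had 294, 546 and 867 in segment 1 and 8.11, 58.2 and 215 in segment 3 (log2 fold change -3.24 ± 0.44, limma adjusted p = 0.000872). Reads shared between models of one name cannot be told apart here, so the split between them is uncertain. APOB (LABE_00031499), the scaffold protein of lipoproteins and one of the most abundant models, had 299050, 522645 and 600790 in segment 1 and 215670, 282085 and 337110 in segment 3 (log2 fold change -0.83 ± 0.22, limma adjusted p = 0.0237). It was lower in all 6 fish, but the groups overlapped through fish 1, its call was lost without fish 3, 4, 5 or 6 (limma adjusted p = 0.051 to 0.0752), and under quantile normalization the sign turned to 0.44 (limma adjusted p = 0.15). A pair of abundant models of apoeb, apolipoprotein E, was lower with no overlap. LABE_00047834 had 101270, 140485 and 198570 in segment 1 and 36748, 60992 and 83388 in segment 3 (log2 fold change -1.29 ± 0.23, limma adjusted p = 0.00411), and LABE_00047833 had 113790, 138100 and 157790 in segment 1 and 57915, 82908 and 89186 in segment 3 (log2 fold change -0.86 ± 0.16, limma adjusted p = 0.00523). The second was not called when all 24 libraries entered the fit. The summed value of the list was lower in segment 3 in all 6 fish.

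Protein digestion and uptake went both ways. Brush border peptidases were called in 17 of 31 models (54.8%, against 19.7% of all models), 13 lower and 4 higher, with a median of -0.34, and the lower count was 8 without fish 3 and 8 without pairing. Against the drop of MEP1B, Enpep (LABE_00030971), which removes acidic residues from peptides, had 7203, 15073 and 20329 in segment 1 and 24097, 29288 and 36371 in segment 3 and was higher in all 6 fish without overlap (log2 fold change 1.14 ± 0.16, limma adjusted p = 0.00102). Peptide and amino acid carriers were called in 20 of 64 models (31.25%, against 19.7% of all models), 10 in each direction, with a median of 0.01 and with 6 lower models without fish 6 and 6 without pairing. Models named SLC15A1, a proton-driven importer of small peptides, moved oppositely. LABE_00049604, one of the 10 largest rises, had 38.2, 67.9 and 137 in segment 1 and 1928, 3546 and 7962 in segment 3 with no overlap (log2 fold change 5.84 ± 0.21, limma adjusted p = 3.46e-07). LABE_00037938, at a far higher level, had 42020, 61173 and 87447 in segment 1 and 27986, 31332 and 46947 in segment 3 and was lower in all 6 fish with overlapping groups (log2 fold change -0.83 ± 0.12, limma adjusted p = 0.00138). The second was not called when all 24 libraries entered the fit (limma adjusted p = 0.194). Models of Slc6a19, a sodium-driven carrier of neutral amino acids, were called in both directions. LABE_00023250 had 1883, 6695 and 15437 in segment 1 and 11544, 16349.5 and 21121 in segment 3 (log2 fold change 1.36 ± 0.29, limma adjusted p = 0.00999). LABE_00034446 had 19389, 24035 and 40126 in segment 1 and 11878, 17952 and 27131 in segment 3 (log2 fold change -0.54 ± 0.11, limma adjusted p = 0.00794), and that call was lost without pairing (limma adjusted p = 0.164). The groups of both overlapped, but every fish moved the same way.

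Sugar genes were called in 15 of 50 models, 14 lower (background 10.9%) and 1 higher, with a median of -0.21. SLC5A1 (LABE_00008799), the sodium glucose carrier, had 19828, 21454 and 23427 in segment 1 and 10862, 13516 and 16538 in segment 3 without overlap (log2 fold change -0.67 ± 0.098, limma adjusted p = 0.00132). slc2a12 (LABE_00026149), a facilitative glucose carrier, had 53.9, 244 and 628 in segment 1 and 2.03, 39.2 and 124 in segment 3 and was lower in all 6 fish although the groups overlapped (log2 fold change -2.65 ± 0.31, limma adjusted p = 0.000404).

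Ion and water genes were called in 27 of 72 tested models (37.5%, against 19.7% of all models), 18 lower and 9 higher, with a median of -0.17. Slc12a1 (LABE_00030851), the sodium potassium chloride carrier that drives salt uptake in the seawater gut, had 44045, 56964 and 80197 in segment 1 and 18831, 22386 and 49007 in segment 3 (log2 fold change -1.17 ± 0.13, limma adjusted p = 0.000286). Fish 2 held the highest segment 3 value, the other 5 had at most 25203, and the ranges overlapped only through it. Slc26a6 (LABE_00040824), an anion exchanger that secretes bicarbonate, had 5782, 8766 and 10110 in segment 1 and 3186, 3894 and 7707 in segment 3 and was lower in 5 of 6 fish (log2 fold change -0.93 ± 0.18, limma adjusted p = 0.00662). The 2 called models of AQP10, a water and glycerol channel, moved apart. LABE_00032476 had 242, 1632 and 5530.1 in segment 1 and 19.1, 33.9 and 676 in segment 3, where the highest segment 3 value was of fish 6 and the other 5 had at most 44.6 (log2 fold change -4.72 ± 0.60, limma adjusted p = 0.000558), and without fish 6 the log2 fold change was -5.41. LABE_00044754 rose from a median of 1551 to 2680 with no overlap (log2 fold change 0.92 ± 0.096, limma adjusted p = 0.000187). GUCA2A (LABE_00009500), the hormone guanylin, which regulates salt secretion, had 851, 2005 and 2334 in segment 1 and 250.0, 438 and 834 in segment 3 (log2 fold change -1.92 ± 0.15, limma adjusted p = 4.89e-05), and its receptor GUCY2C (LABE_00037727) had 3951, 5388 and 7257 in segment 1 and 1251, 1874 and 2518 in segment 3 (log2 fold change -1.58 ± 0.11, limma adjusted p = 2.65e-05). Hormone and receptor were both lower in all 6 fish with separate groups.

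Xenobiotic enzymes were called in 33 of 68 models, 29 lower and 4 higher, against 10.9% and 8.8% of all models, with a median of -0.33. Without fish 3, or without pairing, the higher count was 2. Mgst3 (LABE_00004137), a microsomal glutathione transferase, had 31758, 41846 and 47570 in segment 1 and 9861, 13060 and 17745 in segment 3 without overlap (log2 fold change -1.66 ± 0.16, limma adjusted p = 0.000112). The cytochromes P450 cyp3a40 (LABE_00047508) and cyp3a30 (LABE_00053403) and the carboxylesterase Ces2e (LABE_00002481) fell by 0.76 ± 0.10, 0.82 ± 0.13 and 0.74 ± 0.11 on the log2 scale, each in all 6 fish. Against this, cyp2k1 (LABE_00003632) rose from a median of 28.4 to 331 without overlap (log2 fold change 3.68 ± 0.58, limma adjusted p = 0.00206), and by 4.28 without fish 2.

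Retinoid and vitamin genes were called in 21 of 66 models (31.8%, against 19.7% of all models), 19 lower and 2 higher, with a median of -0.23, and 12 were lower without fish 3. Slc23a1 (LABE_00058622), the vitamin C carrier, had 4795, 5827 and 8185 in segment 1 and 437, 967 and 2104 in segment 3 (log2 fold change -2.71 ± 0.21, limma adjusted p = 3.75e-05). SLC19A3 (LABE_00031953), the thiamine carrier, had 7947, 8185 and 12167 in segment 1 and 3052, 3586 and 5046 in segment 3 (log2 fold change -1.24 ± 0.097, limma adjusted p = 4.14e-05). Neither overlapped. SLC22A5 (LABE_00024842), the carnitine carrier, rose in all 6 fish from a median of 2559 to 4715 with overlapping groups (log2 fold change 0.85 ± 0.13, limma adjusted p = 0.0014).

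The respiratory chain had 72 of 106 tested models called, and all 72 were lower in segment 3 (background 10.9%). The count was 46 without fish 3. Changes were small for most members, with a median log2 fold change of -0.44. ATP5G3 (LABE_00017414), a subunit of ATP synthase, had 8415, 11201 and 13977 in segment 1 and 6019, 6463 and 8148 in segment 3 with no overlap (log2 fold change -0.69 ± 0.11, limma adjusted p = 0.00208). ndufa4 (LABE_00002043), a subunit of the chain, was the member with the largest drop, with 1312, 1943 and 2182 in segment 1 and 33.4, 159 and 666 in segment 3 (log2 fold change -3.42 ± 0.48, limma adjusted p = 0.000995). The summed value of the list was lower in segment 3 in all 6 fish. Microvillus genes were called in 13 of 26 models (50%, against 19.7% of all models), 10 lower and 3 higher, with a median of -0.38. Between 5 and 6 were lower without fish 3, 4, 5 or 6, 5 without pairing and 4 under quantile normalization, and 1 was higher without fish 3, without fish 5 or without pairing. VIL1 (LABE_00003386), villin, which bundles actin in the brush border, had 22115, 29182 and 33437 in segment 1 and 11486, 13456 and 15371 in segment 3 (log2 fold change -1.12 ± 0.10, limma adjusted p = 0.000103), with separate groups. TMIGD1 (LABE_00053039), an adhesion protein of the brush border in mammals, went the other way by a large step, with 88.8, 143 and 296 in segment 1 and 4415, 16654 and 28992 in segment 3 and no overlap (log2 fold change 6.59 ± 0.32, limma adjusted p = 2.83e-06). The epithelial genes Epcam and CDH1 stayed uncalled at -0.10 and -0.08 on the log2 scale (limma adjusted p = 0.501 and 0.624). The 2 models of FABP2, an enterocyte fatty acid binding protein, differed, with LABE_00036062 uncalled at -0.30 (limma adjusted p = 0.149) and LABE_00040385 higher by 0.68 with overlapping groups (limma adjusted p = 0.0417).

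Gut peptide hormones were called in 7 of 31 tested models, 3 higher and 4 lower, close to the background of 19.7%, with a median of -0.02. Of these 31, cck and sst2 reached the minimum through 1 segment alone, and 5 of the other 29 were called (17.2%). With a value of at least 10 in every library, 1 was lower. Rln3 (LABE_00052570), a relaxin family peptide, had 23.2, 39.7 and 66.6 in segment 1 and 2559.7, 3792 and 6206 in segment 3 with no overlap (log2 fold change 6.51 ± 0.17, limma adjusted p = 4.01e-08). Rab32 (LABE_00006530), a small GTPase of lysosome-related organelles, was not in the list but was among the 10 largest rises, with 1.82, 3.87 and 7.4 in segment 1 and 26.8, 451 and 1128 in segment 3 (log2 fold change 5.94 ± 0.69). It reached the minimum through segment 3 alone, and without fish 2 the log2 fold change was 6.63. A model of cholecystokinin, which releases bile and pancreatic juice, was close to 0 in segment 3. This model, cck (LABE_00034484), had 41.8, 144 and 189 in segment 1 and 0, 0 and 3.64 in segment 3 (log2 fold change -6.42 ± 0.45). It reached the minimum through segment 1 alone. The paper names this model cckb and reports that another gene, ccka, was constitutively expressed along the gut. The drop is therefore that of cckb only, and values of ccka are not given here. pyya (LABE_00046718), peptide YY, which slows the gut, was lower in 5 of 6 fish with overlapping groups, from a median of 573 to 45.9 (log2 fold change -3.06 ± 0.72, limma adjusted p = 0.0149), and was not called without fish 3 (limma adjusted p = 0.0545). Without fish 2 its log2 fold change was -3.80. EDN2 (LABE_00045507), endothelin 2, had 37, 83.7 and 419 in segment 1 and 2.43, 15.7 and 25.3 in segment 3 and was lower in every fish without overlap (log2 fold change -2.97 ± 0.46, limma adjusted p = 0.00187).

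Lymphocyte genes were higher in segment 3: 71 of 247 tested models were called, 68 higher (background 8.8%) and 3 lower, with a median of 0.66. Without 2 immunoglobulin models that reached the minimum through segment 3 alone, 66 of 245 were higher. The summed value over all 683 models of the list, tested or not, was 47556 to 72406 in segment 1 (median 55089) and 79309 to 99785 in segment 3 (median 92731). The 2 ranges did not touch. Many members are immunoglobulin models, a multigene family whose reads the counting may divide among near-identical copies. The higher count was 38 without pairing and 41 with a value of at least 10 in every library. POU2AF1 (LABE_00037831), a B cell coactivator needed for germinal centres in mammals, had 175, 209 and 258 in segment 1 and 855, 1088 and 1834 in segment 3 (log2 fold change 2.49 ± 0.13, limma adjusted p = 4.97e-06). CD22 (LABE_00052184), a B cell surface lectin, had 1125, 1686 and 2705 in segment 1 and 4550.2, 6131 and 8550.2 in segment 3 (log2 fold change 1.91 ± 0.14, limma adjusted p = 3.05e-05). Btk (LABE_00029275), a kinase of the B cell receptor, had 994, 1014 and 1107 in segment 1 and 1929.5, 2147 and 2783 in segment 3 (log2 fold change 1.12 ± 0.094, limma adjusted p = 6.17e-05). None of the 3 overlapped between the segments. An immunoglobulin heavy chain model of the membrane-bound form (LABE_00085503) rose from a median of 7.86 to 242, without overlap (log2 fold change 5.36 ± 0.48, limma adjusted p = 8.9e-05). In the other direction, IL7R (LABE_00022282), the interleukin 7 receptor of T cells and innate lymphoid cells, had 373, 1363 and 2803 in segment 1 and 257, 372 and 911 in segment 3 and was lower in all 6 fish (log2 fold change -1.62 ± 0.26, limma adjusted p = 0.00204).

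Macrophage and granulocyte genes were called in 16 of 39 tested models, 15 higher (38.5%, against 8.8% of all models) and 1 lower, with a median of 0.47. ptprc (LABE_00004890), the pan-leukocyte phosphatase CD45, had 6066, 7717 and 9071 in segment 1 and 11869, 14162 and 16779 in segment 3 (log2 fold change 0.86 ± 0.086, limma adjusted p = 0.000152). lcp1 (LABE_00019343), an actin bundling protein of leukocytes, had 6253, 7117 and 7796 in segment 1 and 11578, 12854 and 15437 in segment 3 (log2 fold change 0.89 ± 0.084, limma adjusted p = 0.000112). CORO1A (LABE_00039331), a coronin of leukocytes, had 5395, 5660.1 and 5927 in segment 1 and 8668, 11186 and 14388 in segment 3 (log2 fold change 1.00 ± 0.095, limma adjusted p = 0.000119). These 3 genes are shared by most white blood cells, and each had separate groups. ITGAM (LABE_00002112), an integrin of myeloid cells, rose by 0.47 ± 0.099 without overlap (limma adjusted p = 0.00879). CTSS (LABE_00017884), a protease of antigen presentation, had 209, 263 and 320.2 in segment 1 and 465, 541 and 1273 in segment 3 (log2 fold change 1.20 ± 0.22, limma adjusted p = 0.00499), where fish 2 held 1273 and the other 5 at most 579. The exception was csf1r2 (LABE_00058610), a receptor for macrophage growth factor, with 4628, 5316 and 7032 in segment 1 and 2314, 2582 and 3040.3 in segment 3 (log2 fold change -1.06 ± 0.11, limma adjusted p = 0.000192), which was lower with no overlap.

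Cytokines and chemokines were called in 37 of 123 tested models, 22 higher (17.9%, against 8.8% of all models) and 15 lower (12.2%, near the background of 10.9%), with a median of 0.08, and 9 were lower without fish 3 and 8 without pairing. CXCL13 (LABE_00064073), which in mammals draws B cells into follicles, had 12.7, 16.4 and 39.4 in segment 1 and 98.2, 458 and 913 in segment 3 (log2 fold change 4.27 ± 0.31, limma adjusted p = 3.13e-05). Of 2 called models named CXCL8, a neutrophil attractant, LABE_00067673 had 114, 169 and 335 in segment 1 and 1898, 2624 and 3416 in segment 3 (log2 fold change 3.79 ± 0.16, limma adjusted p = 9.77e-07). LABE_00028950 was lower in all 6 fish, from a median of 1303 to 667 with overlap (log2 fold change -1.003 ± 0.20, limma adjusted p = 0.00762). PIGR (LABE_00068549), which carries immunoglobulin across the epithelium in mammals, had 19.7, 37.5 and 47.3 in segment 1 and 248, 257 and 367 in segment 3 with no overlap (log2 fold change 2.97 ± 0.20, limma adjusted p = 2.23e-05). Innate sensors and complement genes, the list that holds this PIGR model, were called in 39 of 445 models (8.76%), under the background of 19.7%, with a median of -0.13. Of these, 20 were higher (13 without pairing) and 19 lower, and the lower count was 4, 10, 12 and 8 without fish 3, 4, 5 and 6 and 3 without pairing.

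**Figure D4:**
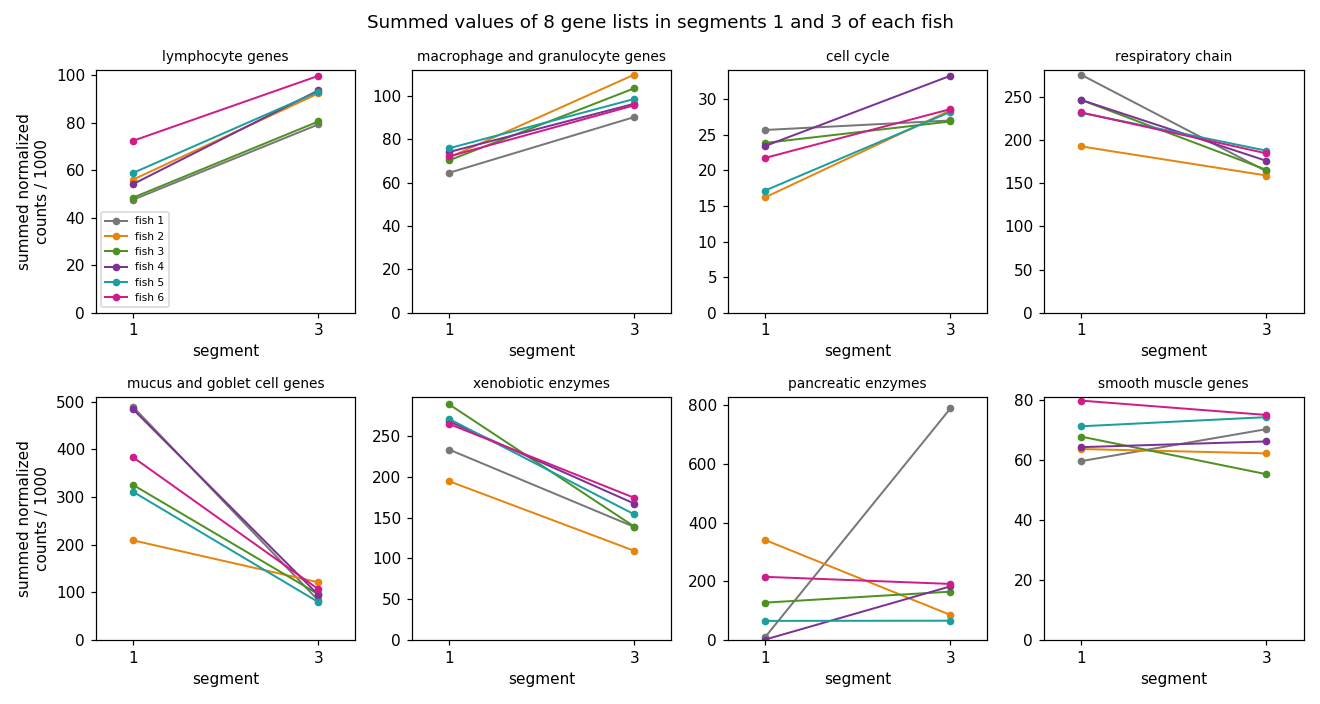
Summed normalized counts divided by 1000 of 8 gene lists in segments 1 and 3, with 1 line per fish. Lymphocyte sums are higher in segment 3 in all 6 fish, mucus sums are lower in all 6, and sums of pancreatic enzymes vary widely between fish within a segment.

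Cell cycle genes were called in 20 of 50 tested models, each higher in segment 3 (background 8.8%), with a median log2 fold change of 0.46. The count was 12 without fish 4 or 6, 10 without fish 5 and 10 without pairing. kif11 (LABE_00006344), a motor of the mitotic spindle, had 839.7, 1032 and 1344 in segment 1 and 1202, 1369.5 and 1776 in segment 3 and was higher in all 6 fish with overlapping groups (log2 fold change 0.39 ± 0.091, limma adjusted p = 0.0146). MKI67 (LABE_00049929), a marker of dividing cells, was higher in 5 of 6 fish (log2 fold change 0.47 ± 0.13, limma adjusted p = 0.0297), and that call was lost without fish 2, 4, 5 or 6. Among Wnt, BMP and hedgehog genes, 12 of 64 models were called, 4 higher and 8 lower, near the background, with a median of -0.11 and with 2 higher without fish 3 or 4. rspo3 (LABE_00001597), a Wnt amplifier made by mesenchyme, had 7366, 8453 and 10276 in segment 1 and 3916, 4409 and 5815 in segment 3 (log2 fold change -0.87 ± 0.11, limma adjusted p = 0.000495). Tcf7l2 (LABE_00019567), the nuclear effector of Wnt signals, had 466, 611 and 826 in segment 1 and 1032, 1251 and 1366 in segment 3 (log2 fold change 1.00 ± 0.13, limma adjusted p = 0.000827). Both had separate groups.

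Collagens and connective tissue genes were called in 22 of 94 models (23.4%, near the background of 19.7%), 6 higher and 16 lower, with a median of -0.04, and 9 were lower without fish 3 and 7 without pairing. FN1 (LABE_00024174), fibronectin, had 1412, 1968 and 2235 in segment 1 and 3414, 3790.3 and 4799 in segment 3 without overlap (log2 fold change 1.02 ± 0.10, limma adjusted p = 0.000162), while COL6A2 (LABE_00049440), a collagen VI chain, had 4668, 5952 and 6964 in segment 1 and 3009, 4061 and 5180 in segment 3 and was lower in all 6 fish with overlapping groups (log2 fold change -0.54 ± 0.09, limma adjusted p = 0.00266). A second called model named FN1 went the other way and was lower in segment 3 (log2 fold change -0.64). Smooth muscle genes were called in 2 of 31 models (6.45%, under the background of 19.7%), both lower, among them MYH11 (LABE_00042328), a smooth muscle myosin, at a low level of 9.33, 160.1 and 550.5 in segment 1 and 1.01, 6.03 and 49.8 in segment 3 (log2 fold change -3.65 ± 0.47, limma adjusted p = 0.000588). Proteasome genes were called in 3 of 56 models (5.36%, under the background), all lower, and in 1 without fish 3 or without pairing. Protein uptake receptors, which in fish serve the hind-gut, were called in 0 of 18 models by limma (under the background of 19.7%), with 3 at an unadjusted p under 0.05. They were called in 0 by edgeR, and in 2 by DESeq2 with pairing and 0 without.

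**Figure D5:**
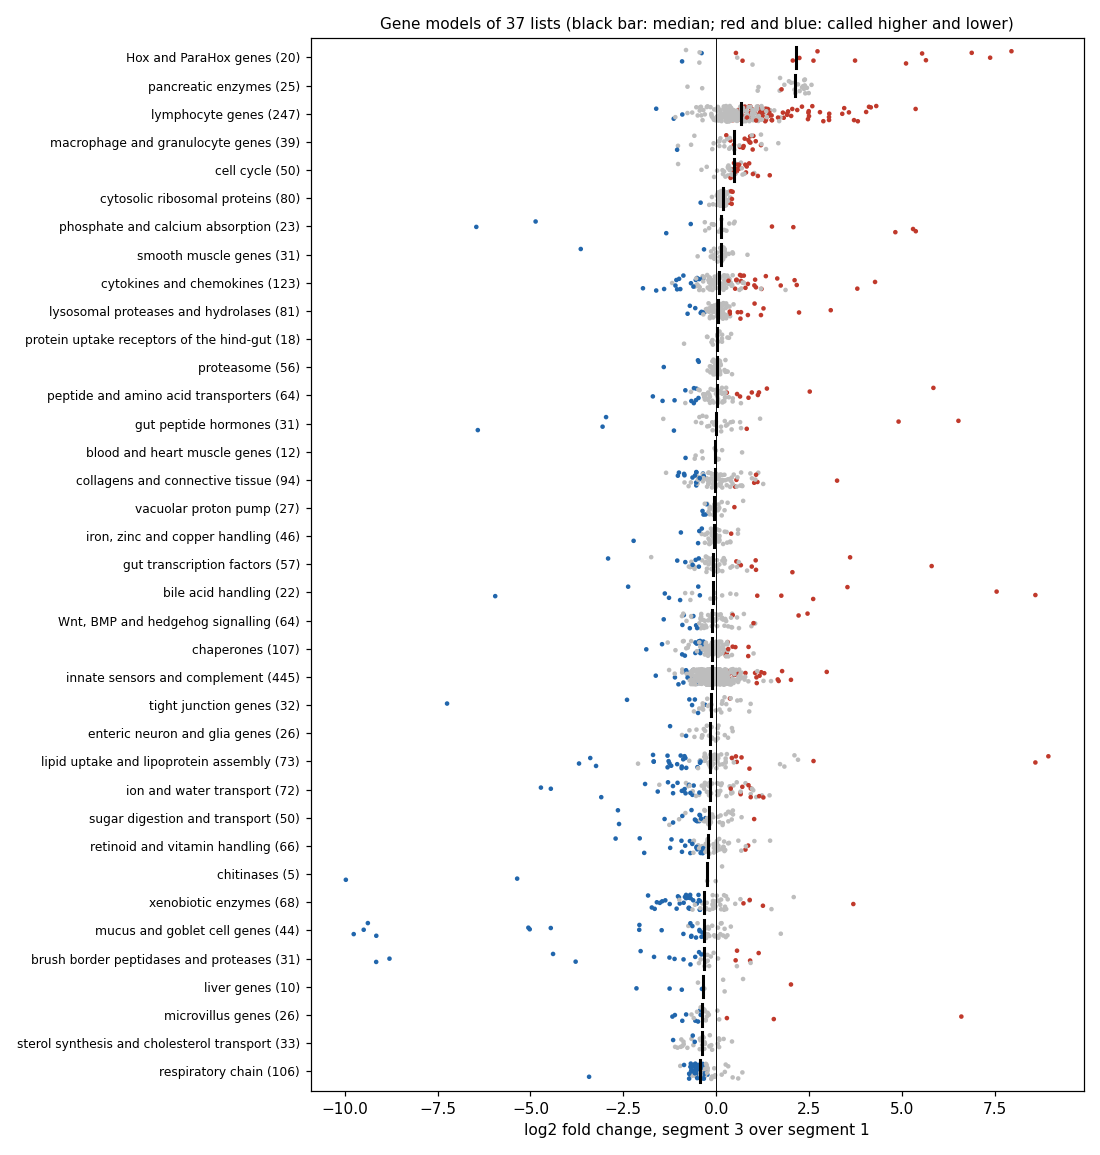
Log2 fold change of segment 3 over segment 1 (x axis) of each tested gene model in 37 lists (rows), with the median as a black bar and called models in red (higher) and blue (lower). The median is -0.44 for the respiratory chain, 0.46 for the cell cycle and 0.66 for lymphocyte genes.

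Enzymes of the exocrine pancreas, whose tissue lies close to the gut in many fish, varied widely between fish. Their summed value ran from 935 to 340902 in segment 1 and from 65480 to 789380 in segment 3, and it was higher in segment 3 in 4 of 6 fish. Their median log2 fold change was 2.12, but 1 of 25 tested models was called (4%, under the 19.7% of all models). It was Chymotrypsinogen A (LABE_00079225), at a low level of 4.15, 12.6 and 60.5 in segment 1 and 25.8, 55 and 75.3 in segment 3 (log2 fold change 1.75 ± 0.45, limma adjusted p = 0.0214), and it was not called without fish 3 or 4 (limma adjusted p = 0.0748 and 0.053). How much pancreatic tissue each library held was not tested.

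The place of segment 2 between the 2 others was examined for the models that changed by 3 or more on the log2 scale. Some of these reached the minimum through 1 segment alone and so had to differ between segments 1 and 3. The share of the step from segment 1 to segment 3 that segment 2 had covered had a median of 0.56 for the 89 higher and 0.37 for the 53 lower models. Of the higher models, 19 had covered under 0.25 of the step, 62 between 0.25 and 0.75, and 8 over 0.75, and the numbers for the lower models were 16, 29 and 8. Among these models, fish 6 held the highest segment 2 value in 42 of the 89 and the highest segment 3 value in 45 of the 53. In segment 2, fish 4 was the highest in 32 of the 89 and fish 2 the lowest in 44. In segment 3, fish 3 was the highest in 40 of the 89. Fish 2 held the lowest segment 3 value in 37 of the 89.

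A separate fit on 18 libraries tested whether segment 2 departed from the midpoint of segments 1 and 3 on the log2 scale. This contrast does not use the difference between segments 3 and 1. It called 8 models (0.0439%), 5 above and 3 below the midpoint, and 966 had an unadjusted p under 0.05. The count was 34 without fish 6, 16 without fish 2 and 4 without fish 5. LNX2 (LABE_00003303), a ubiquitin ligase, had fallen to its final level by segment 2, with medians of 637, 31.5 and 31.7 in segments 1, 2 and 3 and a departure of -1.91 ± 0.29 (limma adjusted p = 0.0235). A DMBT1 model (LABE_00056301) had done the same, with medians of 2930, 90.8 and 77.4 and a departure of -2.56 ± 0.29 (limma adjusted p = 0.00272). CASR (LABE_00087127), the calcium sensing receptor, had risen early, with medians of 10.4, 207 and 309.8 and a departure of 1.79 ± 0.22 (limma adjusted p = 0.00276). tctex1d1-a (LABE_00004088), a dynein light chain protein, also rose early, from 60.1 to 753 and then 660.2 (log2 fold change 3.89 ± 0.31, limma adjusted p = 4.64e-05). Its departure was 1.76 ± 0.26 (limma adjusted p = 0.0202). Rln3 had medians of 39.7, 1072 and 3792 and a departure of 1.44 ± 0.17 (limma adjusted p = 0.00272), and the unnamed model LABE_00051215 had 5.77, 399 and 815 with a departure of 2.25 ± 0.26 (limma adjusted p = 0.00272). The last pair had their extreme median in segment 2. So did tctex1d1-a and, by a narrow margin, LNX2, but their change from segment 2 to segment 3 was not called in a fit of all 24 libraries (limma adjusted p = 0.897 and 0.867). tshz1-a (LABE_00048894), a zinc finger transcription factor, had medians of 258, 98.5 and 220.2 and a departure of -1.17 ± 0.17 (limma adjusted p = 0.015). Nim1k (LABE_00000746), a kinase, had 221, 291 and 114 and a departure of 0.77 ± 0.12 (limma adjusted p = 0.0284). Its rise from segment 1 to segment 2 was not called in a fit of all 24 libraries (log2 fold change 0.41, limma adjusted p = 0.549). A peak of Nim1k in segment 2 is therefore not shown.

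Gene models of one name did not always move the same way. Of 296 names with 2 or more called models, 82 had called models in both directions, PLB1, Slc6a19, SLC15A1, Slc34a2, AQP10, CXCL8, slc51a and CDX1 among them. Of all 3592 calls, 1605 were higher and 1987 lower, and how often called models of different names go in opposite directions was not tested. Whether these are duplicated genes, fragments of one gene or models given the same nearest name was not tested, and a total over a name hides the opposite moves.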

How the data were processed

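RNA-seq libraries (TruSeq RNA v2, HiSeq 2000) were made from 4 intestinal segments of 6 fish. Per the study's methods the authors trimmed reads with cutadapt and sickle, checked them with FastQC 0.9.2, aligned them to their own genome assembly with TopHat2 and counted them per gene model with featureCounts. Versions of the other tools and the strand setting of the counting were not stated, so a gene and its antisense partner cannot be told apart. The signal values in the table deposited by the authors are read counts divided by a size factor of each library (DESeq2 is named in the submitters' processing notes). Of the values in a library, zeros included, 94.502 to 99.31% came out within 0.05 of a whole number of reads once multiplied back, and the recovered reads served for depth and for the edgeR and DESeq2 alternatives.

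Values of at least 10 in 6 of 12 libraries were required. Log2(value + 1) was fitted in limma 3.58.1 (R 4.3.3) with a trended prior and fish as a block, and p-values were adjusted by the Benjamini-Hochberg method over all 18230 models at a threshold of 0.05. A fold change on this scale understates that of low genes. A second fit over 18 libraries set segment 2 against the midpoint of segments 1 and 3. All p-values are two-sided. With fish as a block they rest on how far the differences between segments vary from fish to fish, with variances drawn toward the trended prior. Without pairing they also hold the differences between the fish themselves. The fish number pairs the libraries, since segments with the same number come from one fish. Deviations from the segment means correlated at 0.387 to 0.555 between the libraries of one fish, and on average at -0.0923 between fish. Taking deviations from the segment means pushes the average between fish under 0 when that within a fish is positive. It is therefore not a separate result. The fits were tested on simulated data.

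The 37 gene lists were matched to the deposited gene names, after which 40 names of other families were removed by name. The summed value of a list covers all of its models in the table, also those that were not compared. Members, lists and comparisons were chosen with earlier results of these data known. The genes named were drawn from a rule that takes the 10 largest changes in each direction with one sign in all 6 fish, and from each list up to 4 called members of highest mean and the called member of largest change. Not every list member that met it is described. Further genes, among them slc51a, SLC10A1, CYP8B1, ABCB11, NR1H4, hoxc9, PDX1, hoxb4a, gata4, agr2, ATOH1, SPDEF, GUCA2A, GUCY2C, cck, POU2AF1, IL7R, both CXCL8 models, the lower Plb1 models, FABP2 and the genes of the midpoint test, were chosen after their values were seen. A few genes that meet these rules are not reported here. Alternatives changed the pseudocount, the filter on low values, the scaling (quantile, TMM), the block, the libraries in the fit, the prior, the weights, the tool (edgeR 4.0.16, DESeq2 1.42.0) and each fish in turn. No genome sequence was used here.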

Additional observations from a re-analysis of the deposited data

Results flagged for a closer look

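For 106 of the genes described, the 6 libraries of each segment were searched for a value set apart from the other 5 by a gap that, as a share of the whole range and on the scale of log2 of the value plus 1, was above Dixon's 95% limit for 6 values. About 1 in 20 groups of independent values pass that limit. Genes of one library vary together and were chosen with results known, so the groups here cannot be set against that rate. Of 212 groups, 28 held a value set apart. Fish 6 held 12 of them and fish 2 held 10, while fish 3 held 3, fish 5 held 2 and fish 1 held 1.

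All 12 values of fish 6 were in segment 3. The genes that fall between segments 1 and 3 stood high there: Chia (LABE_00056104) at 32043, where the other fish had at most 69.9, OVCH2 at 8817, MEP1B at 7419, CUZD1 at 5528, OLFM4 at 1938, the second Olfm4 model at 1291, IL7R at 911, the AQP10 model LABE_00032476 at 676 and Agt at 212. Cldn15 at 4.85 and cck at 3.64 were also set apart, at levels of few reads. EDN2 stood low, at 2.43.

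Fish 2 was set apart in both segments. In segment 1 it held the lowest values of CUZD1 (26894), OLFM4 (8681), Olfm4 (5595) and Agt (845). In segment 3 it held the lowest values of Fabp6 (5135, others 96593 or more), hoxa10 (134), hoxa9 (98.7) and SLC10A1 (86.9), and the highest of Slc12a1 (49007) and CTSS (1273).

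In fish 3, SLC19A3 was high at 12167 and tshz1-a was low at 128 in segment 1, and PIGR was high at 367 in segment 3. In segment 3 of fish 5, the CDX1 model LABE_00038637 was high at 4907 and LNX2 was low at 10.1. APOB was low in segment 1 of fish 1, at 299050. The causes of these values were not tested.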

How the results depend on the processing

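Alternatives kept most calls of segment 3 against segment 1. The count was 3592 in the reported fit and within 1.5 times of it except with no replicate block (2392, of which 1243 lower) and without fish 3 (2257). The 2392 calls without the block held 2346 of the reported 3592, so the pairing of libraries by fish added calls. Leaving out each fish in turn gave 2257 to 3472 calls, 998 to 1508 of them higher and 1259 to 1978 lower. Quantile normalization moved the higher share of calls from 44.7% to 50.2%, and the median log2 fold change of all models lay between -0.0075 and 0.023 under every alternative. Of 183 chosen models called in the reported fit, 79 lost the call under at least 1 alternative, most often without fish 3 (52). The other 104 kept it under every alternative in which they were tested. Models such as Cldn15, hoxa10 and MEP1B were too low in some libraries to be tested with the minimum required in every library. Cldn15 and hoxa10 also had to differ between the segments, so their kept calls are no separate support. The sign turned once, for APOB under quantile normalization (0.4449).

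The 8 calls of segment 2 against the midpoint (5 higher, 3 lower) depended on the setting. They numbered 4 with no replicate block (3 higher, 1 lower), 4 with all 24 libraries (1 higher), 99 with array weights (67 higher, 32 lower), 73 by DESeq2 with the replicate block (51 higher, 22 lower) and 21 by DESeq2 without it (13 higher, 8 lower). edgeR gave 8 higher, a minimum of 10 in every library 3 higher and a pseudocount of 5 gave 5 lower. Leaving out a fish gave 4 to 34 (3 to 21 higher, 1 to 13 lower). A fit of all 24 libraries without the block was added after seeing the data (2703 calls between segments 3 and 1). The cause of these differences was not tested.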
